A study of Mus musculus with 6 samples.

Results

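Heparan sulfate is a sulfated sugar chain carried by proteoglycans at the cell surface and in the matrix, and the genes described here are those that make, edit and carry it. Members were taken by gene symbol. They comprise the enzymes of the linker, of chain polymerisation, of N-, 2-O-, 6-O- and 3-O-sulfation and of extracellular editing, together with the syndecan and glypican core proteins. The rule found 39 genes of the 23260 listed, which split by role into 5 linker enzymes, 5 polymerisation enzymes, 4 N-deacetylase/N-sulfotransferases, 2 genes of epimerisation and 2-O-sulfation, 3 of 6-O-sulfation and 7 of 3-O-sulfation, 3 editing enzymes, 4 syndecans and 6 glypicans.

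The study sequenced 3′ mRNA of embryonic submandibular salivary glands (eSMGs), in which epithelial buds branch into a surrounding mesenchyme, to ask what blockade of the chemokine receptor CXCR4 changes. All glands came from ICR mouse embryos at embryonic day 14 and were cultured as whole organs for 6 h. The 3 control tubes received no antagonist and the 3 treated tubes received 50 µM AMD3100, a bicyclam that blocks CXCR4, the receptor of CXCL12. Each tube pooled up to 10 glands. A library is therefore the RNA of a pool of whole glands, with epithelium, mesenchyme, vessels, blood and nerve together, and in such bulk RNA fewer cells of a type cannot be told apart from less RNA per cell. Nothing in the sources used here ties a tube to 1 litter, so the p-values measure the spread between these tubes.

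Chains are begun in the Golgi on a short linker attached to serines of the core protein, extended by a copolymerase of alternating sugars, and then trimmed and sulfated in an order that leaves sulfated stretches. The pattern of sulfates sets which ligands bind, among them fibroblast growth factors and chemokines such as CXCL12, and the chain also acts as coreceptor for fibroblast growth factor receptors. In the developing salivary gland, branching driven by FGF10 is known to depend on heparan sulfate, and 2-O-, 6-O- and 3-O-sulfation have each been linked to it.

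Library totals ran from 9051595 counts in AMD3100 replicate 3 to 14393031 in AMD3100 replicate 1. The 39 genes together took 13906, 16692 and 10452 counts in control replicates 1, 2 and 3 and 19293, 11616 and 8433 in AMD3100 replicates 1, 2 and 3. These were small shares, from 0.0932% of a library (95% Wilson interval 0.0912 to 0.0952) to 0.134% (0.132 to 0.136), and intervals cover counting error only. A total of 28 members had at least 10 counts in every library. Xylt1, Hs6st3 and Gpc5 had 0 counts in all 6 libraries, which allows a level of up to 0.208 to 0.331 CPM (counts scaled to a common library size) when 3 counts per library are taken as the floor. Hs3st5 (24, 0 and 2 counts in control, 18, 0 and 5 in AMD3100) and Hs3st6 (2, 5 and 0, then 13, 7 and 0) fell under the filter on low counts, which left 34 members in the test. Levels below are CPM after TMM normalization, which scales libraries to each other but not by transcript length. Because each read comes from a transcript end, CPM is used here to compare libraries, and sums over genes are sums of reads.

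Markers of both gland tissues were present, with 9 of 9 epithelial and 8 of 8 mesenchymal markers tested and none at 0. The replicate 3 libraries stood apart in both groups. Summed skeletal muscle markers (6 genes, Myog the most abundant) were 114, 124 and 953 CPM in the control libraries and 69.9, 59.5 and 1106 CPM in the AMD3100 libraries, and summed mesenchymal markers (Col3a1 the most abundant) were 4224, 4166 and 1913 CPM and then 4246, 4235 and 1626 CPM. Across genes, the log2 CPM of the replicate 3 libraries correlated at 0.954, against 0.813 to 0.902 for the other pairs of libraries.

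Of the heparan sulfate genes, Hs6st2, a 6-O-sulfotransferase, was the one that fell beyond the thresholds applied (fold change over 1.5 and unadjusted p under 0.05), from a mean of 38.5 to 17.7 CPM. Its paralogue Hs6st1 was higher in every AMD3100 library than in any control library. Gpc3, the glypican with the most reads, was lower in every AMD3100 library than in any control library after TMM, but not in CPM without TMM. The other members gave no call in this fit. Over the 34 members tested, 16 had a higher and 18 a lower fitted level, and the median log2 fold change was -0.02, beside 0.02 over all 13610 genes tested. Lower fitted levels were found for 52.9% of the members and 47.8% of all genes, and 10 members (29.4%) lay beyond a fold change of 1.5 in either direction, beside 23.1% of all genes.

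Past both thresholds was 1 member (2.94%), in the lower direction, against a background of 1.68% of all genes in either direction and 1.28% lower. No gene of the 13610 reached an adjusted p of 0.05 in edgeR's quasi-likelihood test with Benjamini-Hochberg adjustment, where the lowest adjusted p was 1.0, with 228 genes at an unadjusted p under 0.05. DESeq2 gave 5 genes with an adjusted p under 0.05, none of them named here. With the replicate number as a block, 4 members (11.8%) passed both thresholds, namely Hs6st2, Hs3st1 and Gpc3 lower and Ndst2 higher, against 4.39% of all genes, and no member passed after adjustment. Groups of libraries did not overlap for 3 members (8.82%), 1 higher and 2 lower, beside 7.44% of all genes (3.28% higher and 4.17% lower), so that this count lay near the background. In CPM without TMM it was 2 members, Hs6st1 and Hs6st2.

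**Figure D1:**
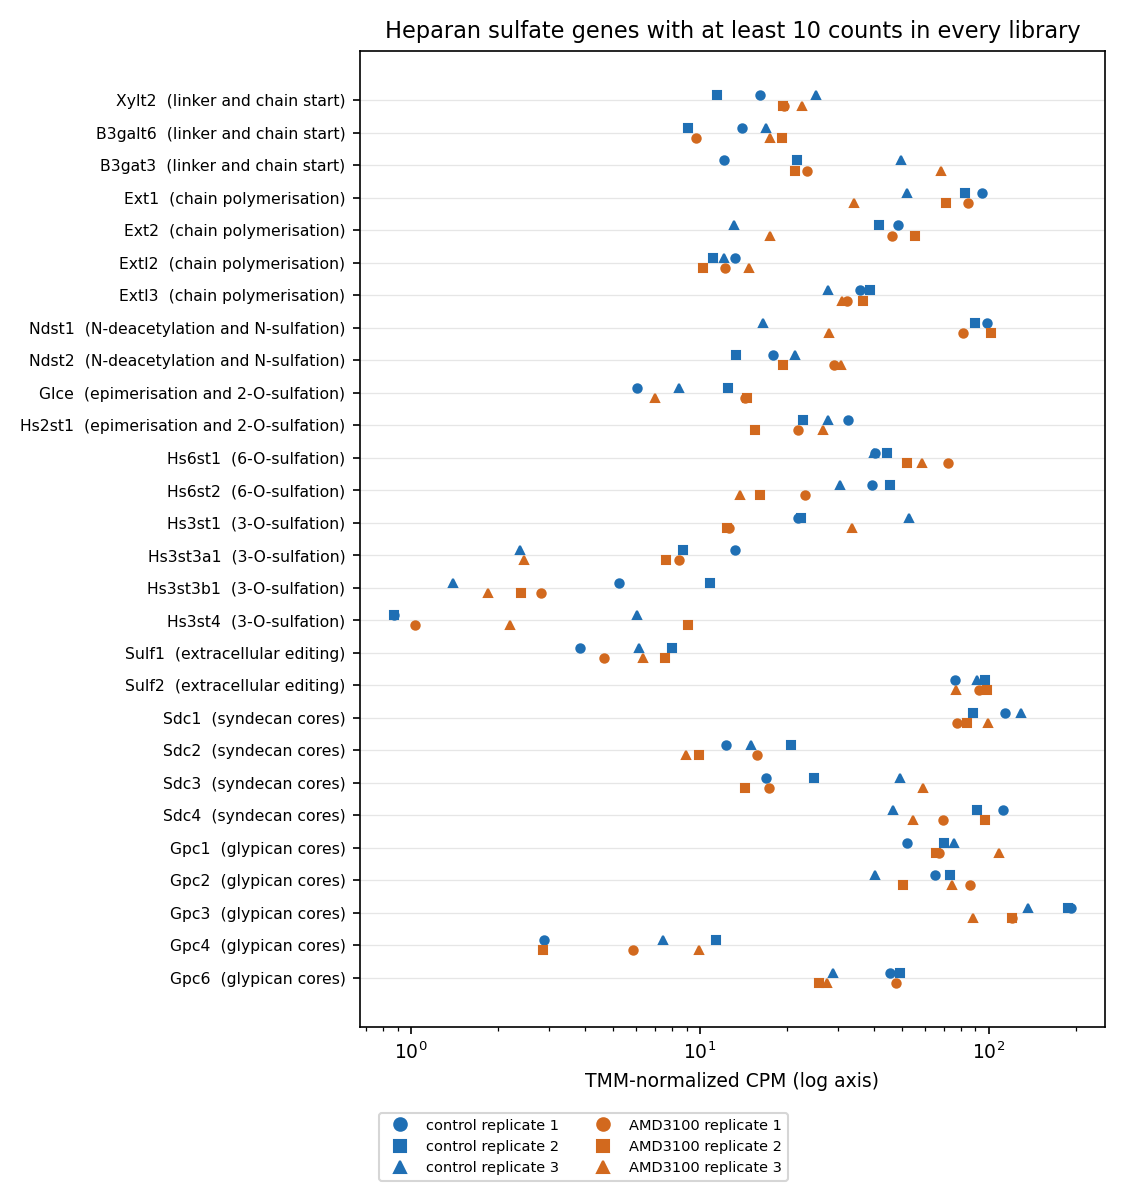
TMM-normalized CPM (log axis) of the 28 heparan sulfate genes with at least 10 counts in every library, with controls in blue and AMD3100 in orange and the marker shape giving the replicate. For most genes the colours interleave, Hs6st2 and Gpc3 have every AMD3100 point to the left of the controls, Hs6st1 has them to the right, and for Ext2, Ndst1, B3gat3 and Sdc3 both triangles of replicate 3 lie away from the other points.

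**Figure D2:**
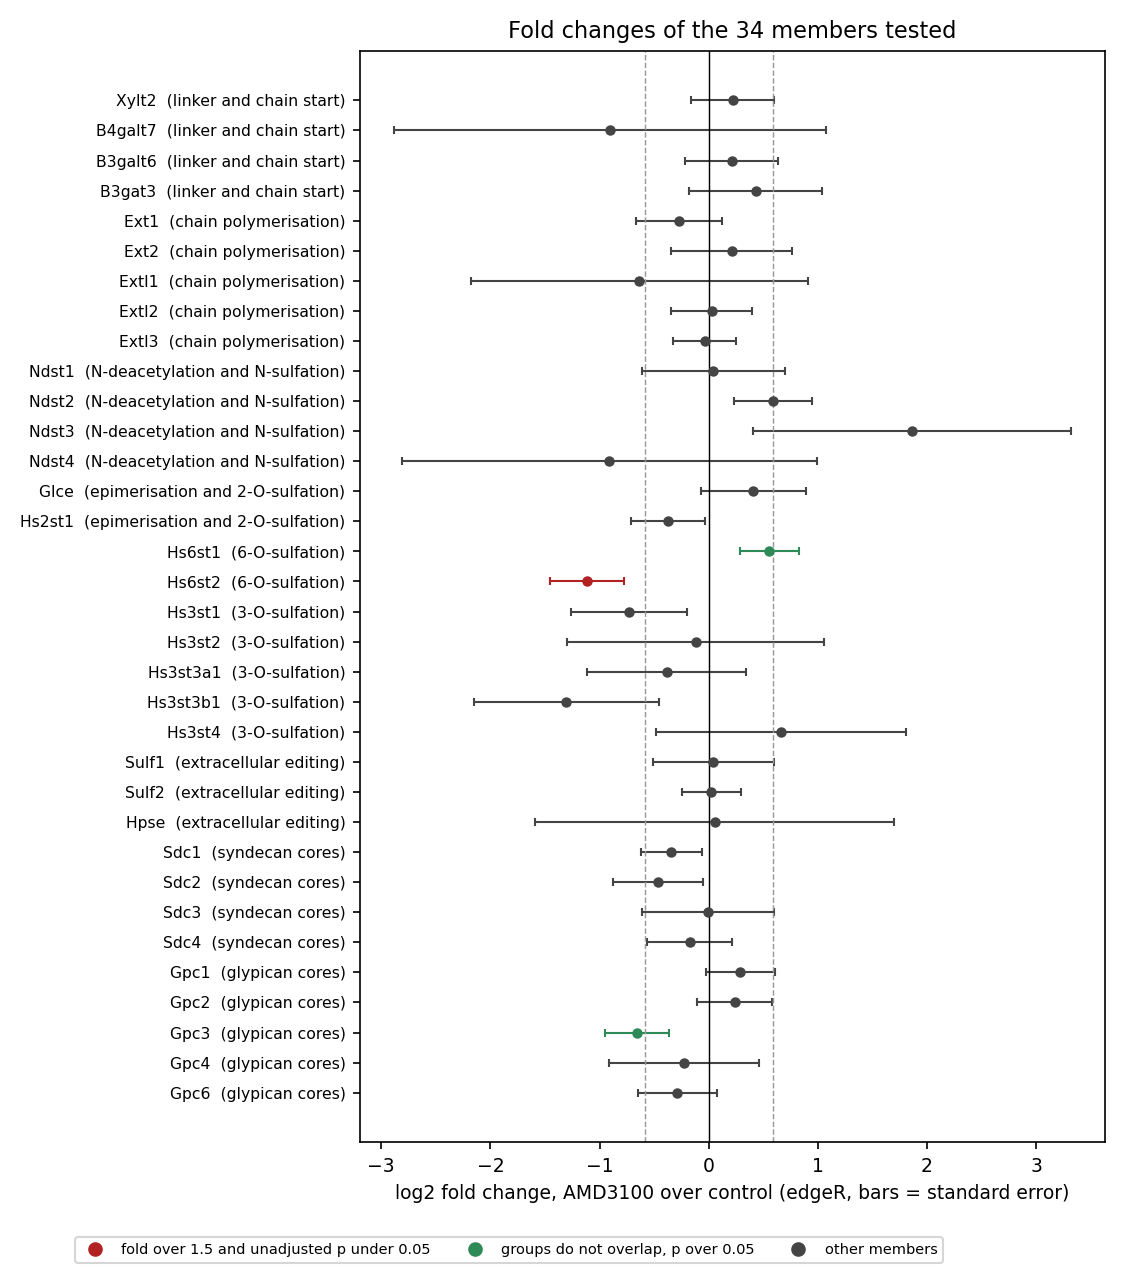
Log2 fold change (AMD3100 over control) of the 34 members tested, with bars of 1 standard error and dashed lines at a fold change of 1.5 in each direction. Hs6st2 (red) is the member past both thresholds, Hs6st1 and Gpc3 (green) have groups that do not overlap, and the widest bars belong to genes with few counts such as Ndst4 and B4galt7.

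Linker enzymes showed no call. Xylt2, a xylosyltransferase that places the first sugar on the core protein, stood at 16.1, 11.5 and 25.3 CPM in control replicates 1, 2 and 3 and at 19.6, 19.4 and 22.6 CPM in AMD3100 replicates 1, 2 and 3, with overlapping groups (log2 fold change 0.22, SE 0.38). B3gat3, the glucuronyltransferase that completes the linker, was at 12.2, 21.8 and 49.9 CPM in controls and 23.5, 21.3 and 68.3 CPM in treated libraries. Both replicate 3 libraries were the highest of their group for B3gat3, and the fitted difference (0.43, SE 0.61) turned to -0.34 without AMD3100 replicate 3. The galactosyltransferases B3galt6 and B4galt7 had fitted differences of 0.21 and -0.90, the latter from at most 17 counts in any library, and 9.09% of simulated reads from the B4galt7 transcript end also aligned elsewhere. Summed over the linker enzymes, reads came to 59.7 ± 29.0 CPM in controls and 74.1 ± 30.8 CPM after AMD3100 (SD, n = 3 each).

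Chain polymerisation held 14.3% of all member reads and gave no call. Ext1, which with Ext2 forms the copolymerase of the chain, measured 94.6, 82.7 and 52.3 CPM in controls and 84.8, 71.0 and 34.1 CPM after AMD3100 (log2 fold change -0.27, SE 0.40). Each AMD3100 library was below the control of the same number, but the groups overlapped, and without AMD3100 replicate 3 the fitted difference was 0.01. Ext2 measured 48.6, 41.7 and 13.2 CPM and then 46.4, 55.6 and 17.6 CPM, with replicate 3 the lowest of both groups and a fitted difference of 0.21 (SE 0.55) that was -0.18 without control replicate 3 and -0.10 without AMD3100 replicate 2. Extl3, which adds the first glucosamine that commits a chain to heparan sulfate, and Extl2, which acts on the linker, had fitted differences of -0.04 and 0.03, and Extl1, at 0 to 48 counts, of -0.64 (SE 1.54). The summed level was 160 ± 47.7 CPM in controls and 150 ± 44.5 CPM in treated libraries (SD, n = 3 each).

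Ndst enzymes remove acetyl groups from glucosamine and put sulfate in their place, the step on which later sulfation depends. Ndst1, the widely expressed member, stood at 98.8, 89.7 and 16.6 CPM in controls and 81.5, 102 and 28.1 CPM in AMD3100 libraries. Both replicate 3 libraries lay far below the others, the groups overlapped, and the fitted difference of 0.04 (SE 0.66) was -0.05 with replicates 1 and 2 only and -0.42 without control replicate 3, with the same sign as the latter without AMD3100 replicate 1 (-0.08) or 2 (-0.31). Ndst2, known for its part in heparin synthesis in mast cells, stood at 17.9, 13.3 and 21.4 CPM and then 29.1, 19.4 and 30.8 CPM. Each treated library was above the control of the same number while the groups overlapped, and the difference (0.59, SE 0.35, edgeR p of 0.130) passed both thresholds with the replicate block (0.59, edgeR p of 0.0456, adjusted p = 0.734). In replicate 3, where Ndst1 was low, Ndst2 took 53.6% and 51.1% of the Ndst reads, against 12.9% to 25.8% in the other 4 libraries. Ndst3 and Ndst4 had at most 60 counts in any library, fitted differences of 1.86 (SE 1.45) and -0.91 (SE 1.90) and no call, and 18.2% of simulated Ndst4 end reads also aligned elsewhere.

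Epimerisation and 2-O-sulfation are the steps of Glce, which turns glucuronic into iduronic acid, and of Hs2st1, which sulfates that sugar. Glce measured 6.04, 12.5 and 8.48 CPM in controls and 14.3, 14.6 and 7.0 CPM after AMD3100 (log2 fold change 0.41, SE 0.48). Hs2st1 measured 32.7, 22.8 and 27.7 CPM and then 21.9, 15.6 and 26.6 CPM (-0.38, SE 0.34), with each treated library below the control of the same number. Groups overlapped for both genes, and their sum was 36.7 ± 1.75 CPM in controls and 33.3 ± 3.03 CPM in treated libraries (SD, n = 3 each).

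The 6-O-sulfotransferase transcripts held the 1 member past both thresholds, and sulfation of the chain was not measured. Hs6st2 had 450, 625 and 307 counts in control replicates 1, 2 and 3 and 402, 176 and 112 counts in AMD3100 replicates 1, 2 and 3, or 39.4, 45.5 and 30.6 CPM and then 23.2, 16.2 and 13.8 CPM. Every treated library was below every control library, and each was below the control of its own number. The log2 fold change was -1.12 (SE 0.34, edgeR p of 0.00958, adjusted p = 1.0), from 38.5 ± 7.49 to 17.7 ± 4.88 CPM (SD, n = 3 each). An exact two-sided permutation test of these 6 values gave p = 0.1, the smallest that 3 against 3 allows. Hs6st2 passed both thresholds in all 16 alternatives, with log2 fold changes from -1.36 to -0.98, at -1.11 with replicates 1 and 2 only and at -1.13 with the replicate block (edgeR p of 0.00137, adjusted p = 0.287).

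Hs6st1, the family member encoded on chromosome 1, had 461, 609 and 403 counts in controls and 1253, 568 and 480 counts in treated libraries. On the CPM scale these were 40.4, 44.4 and 40.2 and then 72.2, 52.3 and 58.9, so that the groups did not overlap and the treated libraries were the higher ones. The difference was smaller than that of Hs6st2 and missed both thresholds (log2 fold change 0.55, SE 0.27, edgeR p of 0.0720), with values from 0.42 to 0.66 over the 16 alternatives and a p of 0.0205 with the block (edgeR, adjusted p = 0.703). Hs6st3 had no counts. Summed 6-O-sulfotransferase reads were 80.1 ± 9.55 CPM in controls and 78.9 ± 14.4 CPM after AMD3100 (SD, n = 3 each).

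The split of these reads between Hs6st1 and Hs6st2 does not depend on how libraries are scaled. Hs6st2 took 49.4%, 50.6% and 43.2% of the Hs6st reads in control replicates 1, 2 and 3 and 24.3%, 23.7% and 18.9% in AMD3100 replicates 1, 2 and 3. The groups lay far apart relative to the spread within them, at 47.8% ± 3.97 and 22.3% ± 2.94 (SD, n = 3 each), a difference of -25.5 percentage points that stayed between -27.7 and -23.8 when any single library was left out. Read as a ratio, Hs6st1 counts over Hs6st2 counts were 1.02, 0.974 and 1.31 in controls and 3.12, 3.23 and 4.29 in treated libraries. The exact two-sided permutation test of the share again gave p = 0.1, the lowest possible. The share was looked at with the fall of Hs6st2 known and is not separate evidence for it. Among cell-type markers, Cdh1 of the epithelial list was also higher in every AMD3100 library than in any control library. Compared by number, Krt14, Krt15 and Sox9 (epithelial) were higher in each AMD3100 library than in its control. Twist1, Pdgfra and Vim (mesenchymal) and Myog and Myod1 (muscle) were lower in each. The other genes of these lists were higher in some pairs and lower in others. By fitted level the lists went both ways, with 7 higher and 2 lower (epithelial), 3 and 5 (mesenchymal) and 4 and 2 (muscle). The part of these markers in the Hs6st values was not tested.

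**Figure D3:**
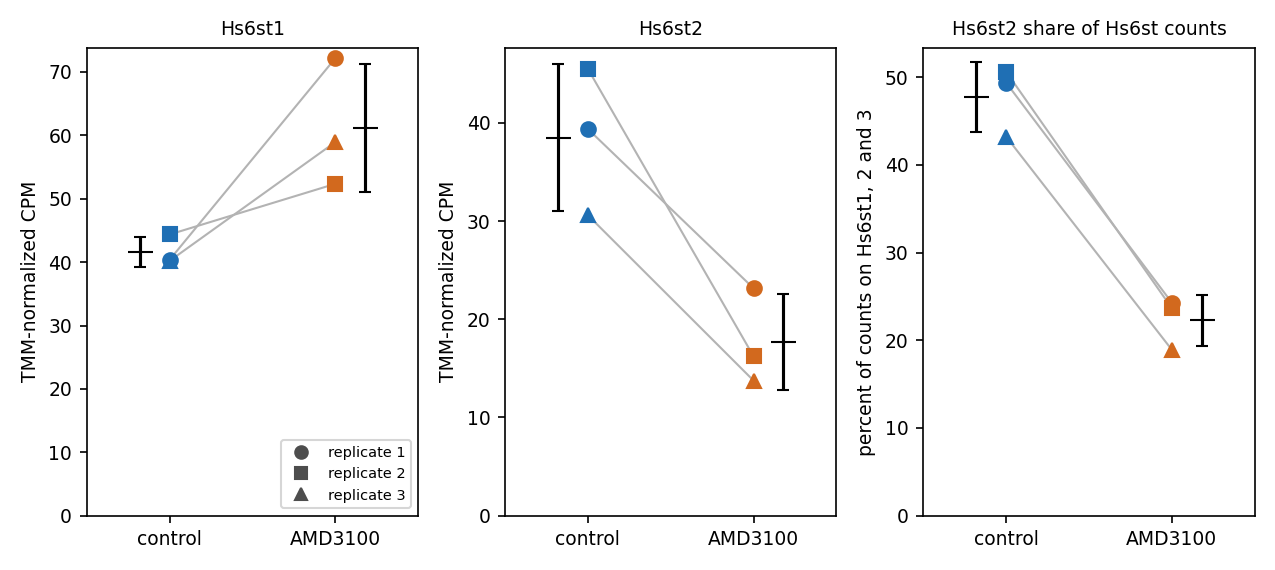
TMM-normalized CPM of Hs6st1 and of Hs6st2 and the Hs6st2 share of all Hs6st reads in percent, with 1 point per library, grey lines joining the libraries of the same replicate number, and black bars for the mean and SD of 3 libraries. Hs6st1 points lie between 40.2 and 44.4 in controls and between 52.3 and 72.2 after AMD3100, Hs6st2 points between 30.6 and 45.5 and then between 13.8 and 23.2, and the share between 43.2 and 50.6% and then between 18.9 and 24.3%.

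The windows around the annotated starts of both Hs6st genes are shown because these paralogues differed in opposite directions. They run from 250 bases before to 50 bases after the start on the mouse assembly GRCm38.p6, as given by RefSeq, 5′ to 3′ on the strand of the gene. Capitals mark exact matches on either strand to GGGCGG, known as the GC box, to TATAAA, known as the TATA box, or to CACGTG, known as the E-box. The Hs6st1 window lies at chr1:36068150-36068449 on the plus strand, and the Hs6st2 windows at chrX:51680428-51680727 (start 1) and chrX:51681553-51681852 (start 2) on the minus strand.
Hs6st1: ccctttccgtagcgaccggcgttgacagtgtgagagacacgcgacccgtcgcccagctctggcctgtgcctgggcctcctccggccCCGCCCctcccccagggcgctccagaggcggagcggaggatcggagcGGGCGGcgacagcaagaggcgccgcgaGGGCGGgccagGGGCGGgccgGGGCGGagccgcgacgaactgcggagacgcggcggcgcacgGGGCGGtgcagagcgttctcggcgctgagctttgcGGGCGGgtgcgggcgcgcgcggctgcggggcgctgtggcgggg
Hs6st2 start 1: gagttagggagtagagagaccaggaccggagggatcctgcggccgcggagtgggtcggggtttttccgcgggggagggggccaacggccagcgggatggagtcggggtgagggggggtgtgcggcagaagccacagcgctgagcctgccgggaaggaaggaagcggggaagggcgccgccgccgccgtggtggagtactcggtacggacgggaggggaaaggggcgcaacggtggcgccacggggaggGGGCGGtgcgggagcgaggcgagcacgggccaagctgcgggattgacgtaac
Hs6st2 start 2: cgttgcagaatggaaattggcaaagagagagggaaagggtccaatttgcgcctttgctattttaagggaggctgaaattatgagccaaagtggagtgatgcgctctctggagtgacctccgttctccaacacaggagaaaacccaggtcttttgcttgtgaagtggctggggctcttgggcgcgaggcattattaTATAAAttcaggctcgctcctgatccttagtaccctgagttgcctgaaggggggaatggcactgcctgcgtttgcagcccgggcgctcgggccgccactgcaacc

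The Hs6st1 window holds 7 GC boxes and 47 CpG dinucleotides at a GC content of 78.0%. Hs6st2 start 1 holds 1 GC box and 33 CpGs at 71.7% GC, whereas start 2 holds no GC box, 1 TATA box and 12 CpGs at 53.7% GC. Of 32851 promoter windows of the same length, 35.7% held a GC box, 13.6% a TATA box and 7.15% an E-box, and the median window had 7 CpGs. Among the 33 windows found for 29 of the members, 21 held a GC box, 3 a TATA box and 3 an E-box. These matches describe the letters in the window, and the 3′ reads do not tell which start was used.

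Hs6st2 lies on the X chromosome (X:51386637-51681705), followed by Gpc4 369 kb further on and by Gpc3 108 kb after that, while Hs6st1 lies at 1:36068400-36106446. Hs6st2 and Gpc3, the members whose AMD3100 libraries lay below all controls in TMM-normalized CPM, are X neighbours. The genes from 1 Mb before Hs6st2 to 1 Mb beyond Gpc3 were therefore examined, a window chosen after the values were seen. Of 24 listed genes there, 16 were tested. Of the 13 tested genes other than Hs6st2, Gpc4 and Gpc3, 6 had a lower fitted level, the median log2 fold change was 0.11, and 1 passed both thresholds, beside 1.68% of all genes. This was Frmd7, encoding a FERM domain protein, with 299, 413 and 99 counts in controls and 174, 129 and 31 counts in treated libraries (-1.36, SE 0.56, edgeR p of 0.0395, adjusted p = 1.0). Its groups overlapped, and its call was lost on leaving out control replicate 1 or 2 or AMD3100 replicate 1 or 3, at log2 fold changes from -1.49 to -1.02, and with the study's kind of procedure (-1.37). The Y-linked genes Ddx3y, Eif2s3y, Kdm5d and Uty had 0 counts in AMD3100 replicate 3 and were detected in the other 5 libraries, and Xist, the RNA of the inactive X, had 1264, 877 and 2547 counts in controls and 2041, 597 and 3261 counts after AMD3100. The part of these differences in the X-linked results was not tested, and without AMD3100 replicate 3 the log2 fold change was -0.98 for Hs6st2 and -0.53 for Gpc3.

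The 3-O-sulfotransferases, which add the rarest sulfate of the chain, held 3.78% of member reads. Hs3st1, which makes the antithrombin-binding motif, measured 21.8, 22.4 and 53.2 CPM in control replicates 1, 2 and 3 and 12.7, 12.4 and 33.8 CPM in AMD3100 replicates 1, 2 and 3. Replicate 3 was the highest of both groups, the groups overlapped, and each treated library was below the control of its number. The log2 fold change of -0.73 (SE 0.53, edgeR p of 0.201) passed both thresholds with the replicate block (-0.76, edgeR p of 0.0102, adjusted p = 0.583) and without AMD3100 replicate 3 (-1.39, edgeR p of 0.0208, adjusted p = 0.999). It was -0.16 without control replicate 3 (edgeR p of 0.756) and -0.49 and -0.48 without AMD3100 replicate 1 and 2.

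Hs3st3a1, a 3-O-sulfotransferase studied in salivary gland buds, was at 13.2, 8.74 and 2.39 CPM in controls and 8.47, 7.65 and 2.46 CPM in treated libraries, overlapping, at -0.39 (SE 0.73) overall and 0.15 without control replicate 1. Hs3st3b1, a close relative of the same specificity, had the lowest fitted difference of all members (-1.30, SE 0.85, edgeR p of 0.159). It was at 5.25, 10.9 and 1.40 CPM in controls and 2.82, 2.40 and 1.84 CPM after AMD3100, so that control replicate 3 was the lowest library and the groups overlapped. Without control replicate 3 it passed both thresholds (-1.76, edgeR p of 0.0499, adjusted p = 0.997), and without control replicate 2 it was at -0.49 (edgeR p of 0.654). Hs3st2 and Hs3st4, at 4 to 99 counts, gave -0.12 (SE 1.18) and 0.66 (SE 1.15). Summed reads of the 7 genes were 52.6 ± 13.2 CPM in controls and 35.7 ± 8.03 CPM in treated libraries (SD, n = 3 each), with 4 of the 5 genes tested fitted lower.

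Of the extracellular editing genes, Sulf2, an endosulfatase that removes 6-O-sulfates from finished chains, had the most reads. Sulf2 measured 76.4, 97.2 and 91.0 CPM in controls and 92.6, 98.9 and 77.1 CPM after AMD3100, or 88.2 ± 10.7 and 89.5 ± 11.2 CPM (SD, n = 3 each), at a log2 fold change of 0.02 (SE 0.27). It took 91.5% to 94.8% of the reads of this group in every library. Sulf1, its paralogue, was at 3.85, 8.01 and 6.18 CPM and then 4.67, 7.56 and 6.39 CPM (0.04, SE 0.55), and Hpse, the heparanase that cuts the chain, had at most 17 counts. Groups overlapped for all 3 genes. The 6-O-sulfatase reads thus differed by less than the spread between libraries, beside the different split of the 6-O-sulfotransferases. A gene on the opposite strand, Ncoa3, covers the 3′ end of Sulf2 in the annotation used, and whether counting used strand is not given in the sources used here.

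All 4 syndecans, the transmembrane carriers, had a lower fitted level (median -0.26), and none passed the thresholds. Sdc1, the main syndecan of epithelia, stood at 113, 88.6 and 129 CPM in controls and 77.6, 84.2 and 99.7 CPM in treated libraries (-0.34, SE 0.28), each below the control of its number but with overlapping groups. Sdc4, a syndecan of focal adhesions, stood at 112, 91.0 and 46.6 CPM and then 69.2, 97.3 and 54.8 CPM (-0.17, SE 0.39), and at 0.09 without control replicate 1. Sdc2 and Sdc3 gave -0.47 (SE 0.41) and 0.00 (SE 0.61), Sdc3 with both replicate 3 libraries the highest of their group. Summed syndecan reads were 255, 225 and 240 CPM in control replicates 1, 2 and 3 and 180, 206 and 223 CPM in AMD3100 replicates 1, 2 and 3. These sums did not overlap (240 ± 14.9 and 203 ± 21.5 CPM, SD, n = 3 each), while no single syndecan had groups that stood apart. The lowest control sum and the highest treated sum were 225 and 223 CPM, and this was 1 of 9 role sums, the others overlapping. The 7.44% of genes without overlap is a share of single genes and gives no background for sums of several genes. Summed epithelial markers were 2146, 2129 and 1470 CPM in controls and 2579, 2251 and 3457 CPM after AMD3100 (9 genes, 7 fitted higher and 2 lower, none past both thresholds, Krt15 the most abundant). The epithelial sums did not overlap either, and there the treated libraries were the higher ones. Cdh1, encoding E-cadherin, was higher in every AMD3100 library, at 337, 302 and 211 CPM and then 344, 394 and 507 CPM, and Krt15 passed both thresholds with the replicate block (0.62, edgeR p of 0.0240, adjusted p = 0.703). The part of these markers in the syndecan values was not tested.

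Glypicans, anchored to the membrane by a lipid, held 29.2% of member reads and Gpc3 alone 12.8%. Gpc3, whose loss in humans causes an overgrowth syndrome, had 2200, 2579 and 1375 counts in controls and 2099, 1303 and 717 counts in treated libraries. At 193, 188 and 137 CPM and then 121, 120 and 88.0 CPM the groups did not overlap, and replicate 3 was the lowest of each. The log2 fold change was -0.65 (SE 0.29, edgeR p of 0.0526, adjusted p = 1.0), from 173 ± 30.8 to 110 ± 18.7 CPM (SD, n = 3 each), and the exact two-sided permutation test gave p = 0.1. Past both thresholds it came with the replicate block (-0.65, edgeR p of 0.000812, adjusted p = 0.235), with replicates 1 and 2 only (-0.66, p of 0.00106), without control replicate 3 (-0.79, p of 0.0237), with at least 10 counts required in every library (-0.66, p of 0.0484) and under DESeq2 (-0.65, p of 0.0374). In CPM without TMM the groups overlapped, since control replicate 3 was at 127 and AMD3100 replicate 1 at 146.

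The window around the start of Gpc3 is shown because this core was the member with the most reads, and it lies at chrX:52613925-52614224 on the minus strand of GRCm38.p6. Capitals mark the same motifs as above. It holds 4 GC boxes and 30 CpGs at a GC content of 70.7%.
Gpc3: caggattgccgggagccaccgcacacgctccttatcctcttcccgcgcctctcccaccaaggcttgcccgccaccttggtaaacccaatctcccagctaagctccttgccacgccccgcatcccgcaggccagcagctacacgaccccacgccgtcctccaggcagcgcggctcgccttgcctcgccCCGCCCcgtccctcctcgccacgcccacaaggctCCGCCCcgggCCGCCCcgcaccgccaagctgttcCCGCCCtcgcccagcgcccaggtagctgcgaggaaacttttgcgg

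Gpc1, a glypican also found in nerve and muscle, stood at 52.1, 69.8 and 76.0 CPM in controls and 67.5, 65.9 and 109 CPM after AMD3100 (0.29, SE 0.32), overlapping, and its fitted difference was 0.0018 without AMD3100 replicate 3. Gpc2, at 0.24 (SE 0.34), shares its annotated 3′ end with genes on both strands, so that its count is uncertain. Gpc4 and Gpc6 gave -0.22 (SE 0.69) and -0.29 (SE 0.36). The Gpc3 share of glypican reads was 53.7%, 48.0% and 47.3% in controls and 36.8%, 45.3% and 28.5% in treated libraries, again without overlap. The Gpc2 share, from an uncertain count, did not overlap either and was the higher in treated libraries, at 18.2%, 18.8% and 14.0% and then 26.3%, 19.0% and 24.1%, while the glypican sum of 347 ± 51.9 and 301 ± 32.2 CPM (SD, n = 3 each) overlapped. Mesenchymal markers, given above by library, had 3 of 8 fitted higher and 5 lower with none past both thresholds. Twist1, a mesenchymal transcription factor, passed them with the replicate block (-0.97, edgeR p of 0.0193, adjusted p = 0.703) and was lower in all 3 AMD3100 libraries than in the control of the same number. Pdgfra and Vim were lower in this way too, and the other mesenchymal markers were not. The part of these markers in the Gpc3 values was not tested.

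**Figure D4:**
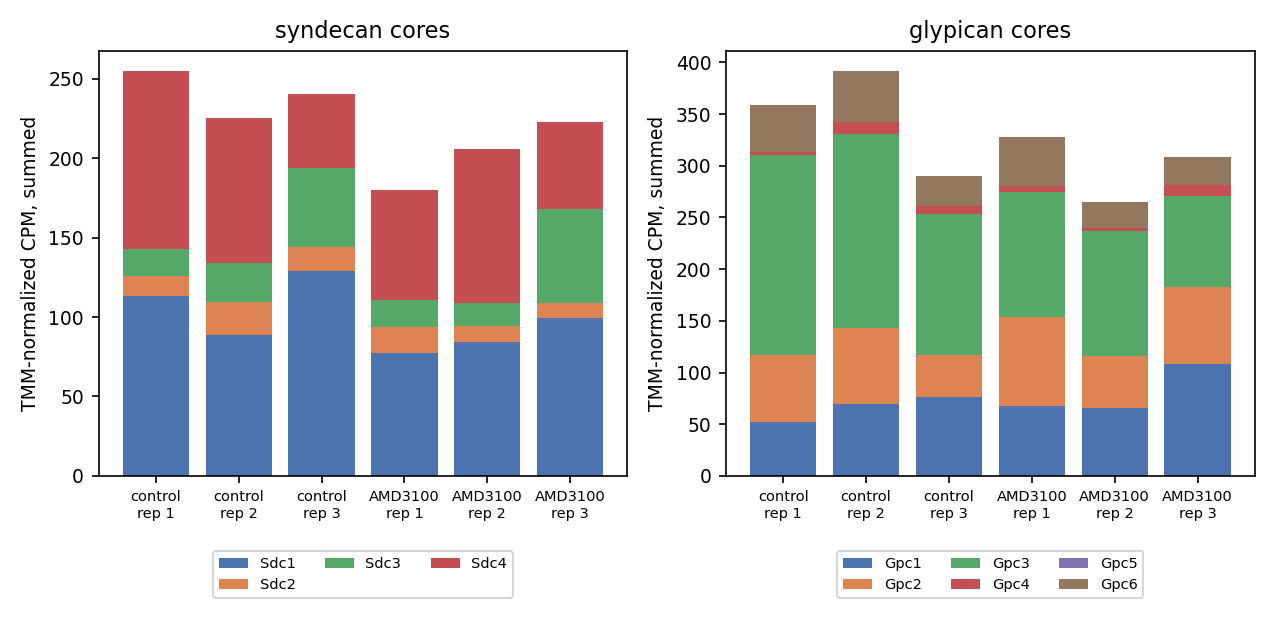
Summed TMM-normalized CPM of the syndecan (left) and glypican (right) core genes in each library, stacked by gene, with bars starting at 0. The 3 control bars of the syndecans (225 to 255) are taller than the 3 AMD3100 bars (180 to 223), and within the glypicans the Gpc3 segment is between 137 and 193 in controls and between 88.0 and 121 after AMD3100.

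Several members differed more between replicate 3 and the other replicates than between control and AMD3100. In both groups, Ext2, Ndst1, Ndst3 and Hs3st3a1 were more than 2-fold lower in replicate 3 than the mean of replicates 1 and 2, and B3gat3, Hs3st1, Hs3st2 and Sdc3 more than 2-fold higher. For Ndst1 the replicate 3 level was 0.176 times that mean in controls and 0.307 times in AMD3100, and for Sdc3 it was 2.36 and 3.73 times. The 4 lower members are 11.8% of those tested, beside 10.6% of all genes lower and 9.18% higher in this way, so that the members followed replicate 3 about as often as other genes. The muscle and mesenchymal marker sums given above moved with the same libraries, and their part in these values was not tested. Hs6st1 and Hs6st2 stayed within 2-fold, at 0.949 and 0.721 times in controls and 0.947 and 0.698 times in AMD3100.

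**Figure D5:**
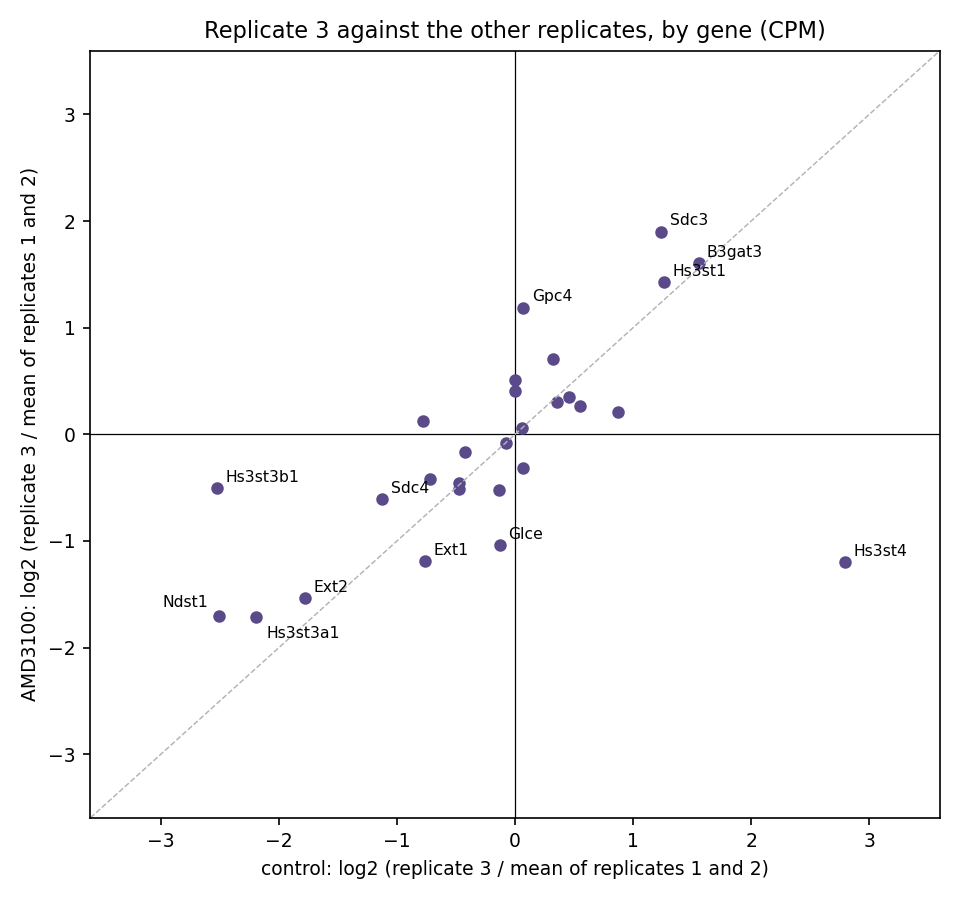
Log2 ratio of replicate 3 to the mean of replicates 1 and 2 in control (horizontal) and AMD3100 (vertical) libraries for the 28 members with at least 10 counts in every library, from CPM, with the dashed line marking equal ratios. Most genes lie along the line, with Ndst1, Hs3st3a1 and Ext2 at the lower left, Sdc3, B3gat3 and Hs3st1 at the upper right, and Hs3st4 and Hs3st3b1 off the line.

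Genes around the pathway were read in 6 lists of 68 listed genes in all, of which 58 were tested, 29 higher and 29 lower. Past both thresholds was 1 of them, beside 1.68% of all genes. Groups did not overlap for 4 of the 58, all higher, beside 7.44% of all genes in either direction and 3.28% higher. This count lay near the background for either direction. The supply of sugar nucleotides and sulfate donors (14 tested, 9 higher and 5 lower) held the gene past the thresholds. Slc26a2, a sulfate transporter of the cell membrane, rose from 3.15, 6.99 and 1.70 CPM in controls to 11.1, 25.4 and 4.30 CPM in treated libraries (1.78, SE 0.76, edgeR p of 0.0448, adjusted p = 1.0), each above the control of its number although the groups overlapped. Its call held in 10 of 16 alternatives, and it was lost without control replicate 1 (1.63) or 3 (1.42) and without AMD3100 replicate 1 (1.90) or 2 (0.96), with limma-voom (1.72) and with the study's kind of procedure (1.82). Slc35d2, a Golgi transporter of sugar nucleotides, did not overlap, at 2.10, 0.437 and 1.20 CPM and then 2.59, 5.16 and 3.56 CPM (1.59, SE 0.98). Its fitted difference was between 1.19 and 2.19 when 1 library was left out.

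Other carriers of heparan sulfate (6 tested, 2 higher and 4 lower) held no call, with Agrn, encoding the basement membrane proteoglycan agrin, at 0.46 (SE 0.33) and Cd44, whose variant forms carry the chain, at -0.40 (SE 0.35). Lysosomal breakdown (8 tested, 5 higher and 3 lower) held none either, with the sulfatases Sgsh at 1.01 (SE 0.70) and Ids at -0.44 (SE 0.42). Sgsh passed both thresholds without control replicate 3 (1.75, edgeR p of 0.0442) and was at 0.62 without control replicate 2. Card14, on the opposite strand, covers the annotated 3′ end of Sgsh, so that its count is uncertain. For Ids, 9.09% of simulated end reads also aligned elsewhere. The enzymes of chondroitin and dermatan sulfate, which share the linker, counted 6 higher and 6 lower of 12 tested and their cores 3 higher and 3 lower of 6, with none past the thresholds. Of the enzymes Chst12 was at 0.90 (SE 0.71) and Csgalnact2 at 0.70 (SE 0.57), and of the cores Cspg4 was at -0.88 (SE 0.81), or -0.048 without control replicate 1, and Dcn, the matrix proteoglycan decorin, at 0.14 (SE 0.33). Of the simulated Csgalnact2 end reads, 9.09% also aligned elsewhere.

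Ligands and receptors that bind heparan sulfate in the gland (12 tested, 4 higher and 8 lower) had no call and 3 genes without overlap, all higher in AMD3100. Of all genes, 7.44% had no overlap in either direction and 3.28% were higher. Over all the surrounding lists together it was 4 of 58, near that background. Counts were low for some, with Ackr3 at 66, 10 and 17 counts in control replicates 1, 2 and 3. Fgf1 was at 2.45, 4.01 and 2.69 CPM in controls and 12.7, 5.35 and 4.30 CPM in treated libraries (1.29, SE 0.66, edgeR p of 0.0850), or 0.66 without AMD3100 replicate 1. Arhgap26, on the opposite strand, covers the annotated 3′ end of Fgf1, so that its count is uncertain. Bmp7 was at 22.0, 33.2 and 26.2 CPM and then 42.3, 41.2 and 35.2 CPM (0.54, SE 0.30). Ackr3, the second receptor of CXCL12, which clears it, was at 5.78, 0.728 and 1.70 CPM and then 6.22, 6.73 and 7.0 CPM (1.28, SE 0.82), and passed both thresholds without control replicate 1 (2.45, edgeR p of 0.0169) and with limma-voom after quantile normalization (2.12, p of 0.0423). Cxcl12 itself was at 115, 107 and 175 CPM in controls and 98.1, 123.1 and 79.9 CPM after AMD3100 (-0.39, SE 0.32), with -0.0069 from replicates 1 and 2 only and -0.56 to -0.14 when 1 library was left out. Cxcr4, the target of the antagonist, was at 28.9, 10.3 and 30.3 CPM and then 17.7, 15.0 and 16.2 CPM (-0.50, SE 0.44). Groups overlapped for both, and neither passed the thresholds.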

How the data were processed

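The authors deposited whole read counts per gene symbol for 6 libraries, without normalization. Per the study's methods the libraries were 3′ mRNA-seq with 50 bp single reads, and the submitters' processing notes name Bowtie2, edgeR and mm10, while versions, counter, annotation and strand setting are not given in the sources used here. Of 23282 lines per library, 22 repeats were left out. Rn45s took 16.2 to 32.5% of counts. Members and lists were chosen with earlier results of these data known.

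Counts were tested with edgeR 4.0.16 in R 4.3.3 (TMM, filterByExpr, quasi-likelihood fit, Benjamini-Hochberg over 13610 genes), with condition as the only term. The scripts were tested on simulated data with less spread between libraries than here, where edgeR's common biological coefficient of variation was 0.579. That test checks the code and does not show what these 6 libraries can detect. A call needed a fold change over 1.5 and an unadjusted p under 0.05. Values in every library are printed for members past both thresholds, members whose groups did not overlap and the 2 members of each role group with the highest mean CPM, together with Hs3st3b1, chosen after its values were seen. Of each surrounding list the genes past the thresholds or, with none, those with the lowest p are named, plus Slc35d2, Ackr3, Cxcl12 and Cxcr4. Deviations of same-numbered libraries from their group means correlated at 0.185, 0.171 and 0.584 for replicates 1, 2 and 3, each over 0.1, and by this rule the numbers shared by the labels were taken as pairs. Replicates 1 and 2 correlated as well across numbers (0.198 for control 2 and AMD3100 1, 0.146 for control 1 and AMD3100 2), so that only replicate 3 stood apart. The rule therefore does not show which tubes of replicates 1 and 2 belong together, and comparisons by number follow the labels. The replicate block was an alternative, as were DESeq2 1.42.0, limma 3.58.1, other filters and scalings, left-out libraries and the study's kind of procedure (quantile normalization and an equal-variance test).

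Positions and promoters are from RefSeq (GRCm38.p6). Overlaps and shared reads were examined on GENCODE vM1 transcripts (NCBIM37) by aligning 50-base pieces of the last 300 bases with minimap2 2.31-r1302. No protein sequence was used here.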

Additional observations from a re-analysis of the deposited data

How the results depend on the processing

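Genes with an adjusted p under 0.05 were 0 with edgeR, 5 with DESeq2 and 3 with the replicate block. Genes past both thresholds were 228, but 479 with DESeq2, 598 with the block, 613 with replicates 1 and 2 only, 439 with the study's kind of procedure and 163 to 547 when 1 library was left out, the highest without control replicate 3 and 451 without AMD3100 replicate 3. Members past both thresholds were 1, but 2 with DESeq2, 2 with at least 10 counts in every library, 2 with replicates 1 and 2 only, 4 with the block and 1 to 3 with 1 library left out. The cause was not tested. The block changed no other call among the members. Hs6st2 was called in all 16 alternatives. Signs turned for some members, over left-out libraries from -0.012 to 0.58 for Xylt2, -0.34 to 1.16 for B3gat3, -0.54 to 0.015 for Ext1, -0.18 to 0.55 for Ext2, -0.42 to 0.41 for Ndst1 (-0.049 with replicates 1 and 2 only), -0.82 to 0.15 for Hs3st3a1, -0.20 to 0.30 for Sulf1, -0.078 to 0.10 for Sulf2, -0.46 to 0.094 for Sdc4, and for the other genes -0.16 to 1.28 for Chst12 and -0.011 to 0.37 for Dcn. With 3 tubes a group, and 9051595 counts in the shallowest library, genes such as Ndst3, Ndst4, Extl1 and Hpse carried standard errors over 1 log2 unit.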

Other observations

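Markers of other cell types in the pooled glands were read beside the heparan sulfate genes, and no list held a gene past both thresholds without the replicate block. With it, Krt15 of the epithelial list (0.62, edgeR p of 0.0240), Twist1 of the mesenchymal list (-0.97, p of 0.0193) and Myog (-1.16, p of 0.00442) and Myod1 (-2.05, p of 0.0312) of the skeletal muscle list passed. The skeletal muscle list had 4 genes fitted higher and 2 lower of 6 tested without the block, where Myog was at -0.24 and Myod1 at -0.96, and the other genes at 0.48 (Myh3), 0.44 (Acta1), 0.72 (Tnnt3) and 0.25 (Des). Of the 10 red blood cell genes listed, Hbb-b1 and Hbb-b2 had counts within 0.911% of those of Hbb-bs and within 0.735% of those of Hbb-bt in every library, so that these pairs may hold the same reads and are counted once here. The 8 genes left had a lower fitted level after AMD3100, with Hba-a1 the most abundant, yet the summed levels overlapped, at 7243, 19400 and 11361 CPM in control replicates 1, 2 and 3 and 7008, 11005 and 11908 CPM in AMD3100 replicates 1, 2 and 3. Macrophage markers (6 tested, 4 higher and 2 lower) summed to 87.0, 62.1 and 190 CPM and then 85.5, 87.7 and 155 CPM, with C1qb, a complement subunit, lower in every treated library. Of the neuronal markers of the parasympathetic ganglion (5 tested, 3 higher and 2 lower) Prph, the peripheral neuron filament, was the most abundant, and the sums were 555, 447 and 593 CPM and then 489, 359 and 976 CPM. Endothelial markers (4 tested, 1 higher and 3 lower) summed to 33.97, 23.7 and 28.2 CPM and then 19.4, 44.4 and 15.6 CPM, and cartilage markers (4 tested, 1 higher and 3 lower) to 78.4, 85.2 and 30.9 CPM and then 94.7, 60.6 and 21.5 CPM, lowest in replicate 3 of both groups.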
